A study of Drosophila melanogaster with 2 samples.

Results

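Neuroblasts, the neural stem cells of the fly, divide asymmetrically, and the 10 genes described here build the machinery of that division. They are brat, numb, mira, pros, insc, baz, pins, aPKC, par-6 and l(2)gl, taken by symbol from the Ensembl annotation, 10 of the 13945 protein-coding genes. The question was where on these genes GFP-tagged Oli, a basic helix-loop-helix transcription factor, was found in the embryo. Chromatin immunoprecipitation followed by sequencing (ChIP-seq) with an antibody against GFP had been done in 2 biological replicates of 1 group. According to the labels, the flies were a transgenic line that stably carried Oli with GFP at its C terminus, and the sample was entire mixed-sex embryos between 6 and 18 hours old. No untagged or mutant group was compared.

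A peak was tied to a gene when the gene had the nearest protein-coding start site to the summit, the highest point of the peak, or when the summit lay in the gene body. In the authors' list cut by the irreproducible discovery rate (IDR), a measure of reproducibility, 23 peaks were tied to the 10 genes. The pooled list and the lists of replicate 1 and replicate 2 held 30000 peaks each, of which 88, 84 and 78 were tied to them. Signal stands for the peak height reported by the authors' caller, in arbitrary units, and rank 1 is the strongest peak of a list. Since whole embryos were used, many cells bearing a little tagged protein and few cells bearing much of it cannot be told apart, and no peak can be assigned to neuroblasts.

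In a dividing neuroblast, an apical protein complex sets the axis of polarity and fate determinants are pushed to the basal side. Bazooka (Par-3, from baz), Par-6 and the atypical protein kinase C aPKC form the apical Par complex, Inscuteable links it to Pins, and Pins orients the spindle. The cortical tumour suppressor Lethal (2) giant larvae is a substrate of aPKC. The adaptor Miranda carries the transcription factor Prospero and the translational repressor Brain tumor into the smaller daughter, the ganglion mother cell, and Numb enters the same daughter and dampens Notch signalling there.

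Of the 10 genes, 6 had at least 1 IDR peak, where 27.5% of all protein-coding genes had one. They were brat with 8 peaks, baz with 5, numb, pros and insc with 3 each, and aPKC with 1. In the pooled list 7 of the 10 had a peak, the additional gene being mira, against 55.6% of coding genes. The same count of 7 stood in each replicate list, against 56.3% of coding genes for replicate 1 and 58.1% for replicate 2. No peak of any of the 4 lists was tied to pins, par-6 or l(2)gl.

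**Figure D1:**
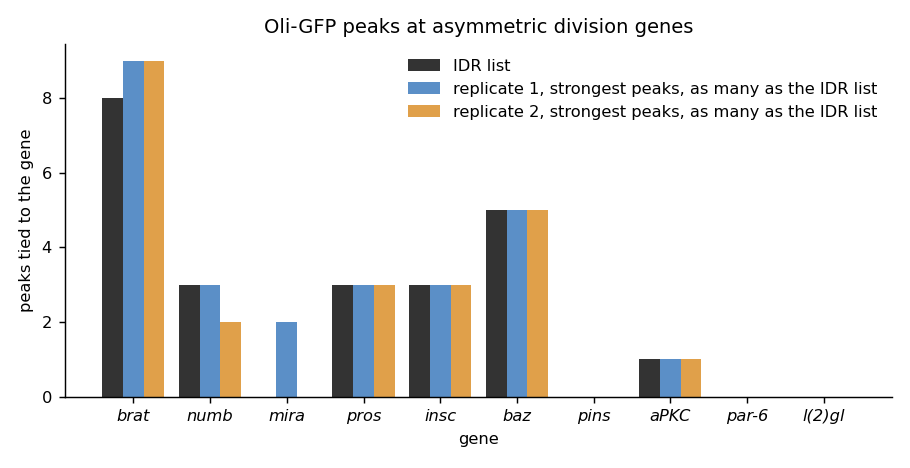
Number of peaks tied to each of the 10 genes (vertical axis) in the IDR list and in each replicate, cut by signal to its strongest peaks, as many as the IDR list holds. The gene brat had 8 IDR peaks and 9 in each replicate, whereas pins, par-6 and l(2)gl had none, and mira had 2 in replicate 1 alone.

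The genes with and without peaks differed in size. The territory of a gene, the span of bases whose summits count for it, had a median of 38.1 kb (18.7 to 121 kb) for the 6 genes with an IDR peak and of 6.96 kb (3.91 to 23.3 kb) for the 4 without. Over all coding genes the medians were 11.4 kb with a peak and 4.25 kb without. All 4 genes with a territory of 30 kb or more (brat, numb, pros and baz) had an IDR peak, where 62.9% of coding genes of that size did. Between 10 and 30 kb, insc and aPKC had one and l(2)gl did not, so 2 of 3, against 44.9%. Below 10 kb, none of mira, pins and par-6 had one, against 17.9%. Per Mb of territory the 10 genes held 70.8 IDR peaks (23 over 325 kb), and the genome searched held 48.5. The genome value covers every base searched, including territories of up to 2530 kb without an IDR peak, and was not matched to the 10 genes. The density was uneven, and brat alone held 8 of the 23 peaks. No density was computed without brat. By gene it was 174 at brat, 138 at insc, 122 at baz, 85.3 at numb, 53.6 at aPKC and 24.7 at pros. The other 4 genes had 0.

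**Figure D2:**
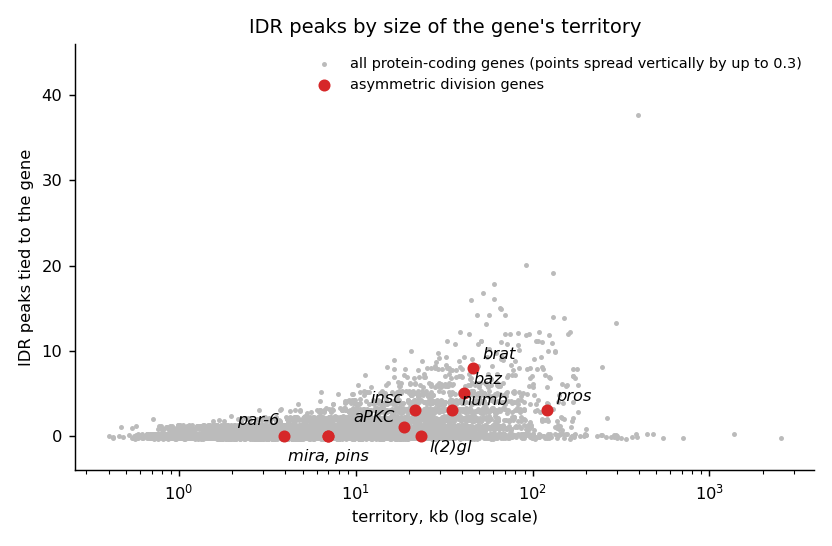
IDR peaks tied to each protein-coding gene (vertical axis) against the size of its territory in kb (horizontal axis, log scale); the 10 asymmetric division genes are red and all coding genes grey. The genes mira, pins and par-6 lie at 0 peaks and under 10 kb, and brat stands highest of the 10 with 8 peaks over 46.1 kb.

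The strongest peaks at the 10 genes lay upstream of internal start sites of brat and numb, by 688 and 145 bp. Only the numb summit was within 500 bp of a start. These 2 peaks were the only ones of the 23 in the strongest 500 IDR peaks (8.70%, where the whole list gives 7.70%). Their summit sequences and that of the next strongest brat peak are shown because they are the 3 strongest of the 23. Each window runs 50 bases to either side of the summit on the plus strand of dm6. Capitals mark CAGTG or GAGAG on either strand, and also any E-box, the CANNTG hexamer to which basic helix-loop-helix proteins bind. None of these 3 windows held an E-box.

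brat, rank 233, chr2L:19165129-19165229: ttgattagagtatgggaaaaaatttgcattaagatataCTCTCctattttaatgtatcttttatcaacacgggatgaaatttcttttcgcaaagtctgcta
numb, rank 258, chr2L:9449635-9449735: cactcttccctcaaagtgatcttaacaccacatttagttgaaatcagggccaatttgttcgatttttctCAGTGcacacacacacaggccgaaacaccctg
brat, rank 1064, chr2L:19141865-19141965: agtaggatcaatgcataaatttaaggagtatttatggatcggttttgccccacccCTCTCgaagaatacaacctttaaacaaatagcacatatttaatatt

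Among the basal determinants, brat carried the most peaks. The gene (FBgn0010300) lies on the plus strand of 2L at 19133816 to 19179758, is 45.9 kb long and has 5 annotated transcripts from 3 start sites. Its 8 IDR peaks are a number that 99 coding genes (0.71%) reach, and 7.11% of the coding genes with a territory of 30 kb or more. The weaker pooled peaks add 17 more, for 25 in all, and the replicate lists held 22 and 21.

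The strongest brat peak (19164990 to 19165320, 331 bp wide) had its summit at 19165179, 688 bp upstream of the most distal internal start and 31363 bp inside the gene, in an intron of 4 of the 5 transcripts. Its signal was 1587 in the IDR list, 752 in replicate 1 (rank 301) and 833 in replicate 2 (rank 172). Both replicates thus placed it near the top of their lists. A second group of 4 peaks stood further upstream, in an intron of 2 of the transcripts. Its highest member (19141707 to 19142122) had a signal of 662 (rank 1064), with 427 in replicate 1 (rank 823) and 229 in replicate 2 (rank 1695). That is a rank ratio of 2.06 between replicates, 1 of only 2 above 2-fold among the 23 peaks.

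The other 6 brat peaks were weak for the list, with signals between 156 and 224 and ranks between 4430 and 6459. One of them (19133472 to 19133887, signal 183) lay 136 bp upstream of the first brat start, inside the body of Polr1D, which encodes a subunit of RNA polymerases. Its signal was 122 in replicate 1 (rank 4557) and 74.3 in replicate 2 (rank 6242). The peaks at 19136125, 19138525, 19141085 and 19141915 in that intron were nearer to the start of Polr1D, 892 to 6682 bp away, than to a brat start, and are tied to brat through its body alone. The peak at 19159386 (signal 199) sat 87 bp from the start of the non-coding RNA lncRNA:CR44977 within brat. Its rank was 4375 in replicate 1 and 6803 in replicate 2, lower in the second. The last, at 19163394 (signal 194), was intronic, 2473 bp upstream of the distal start, and its ranks were 6035 and 4655.

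The gene numb (FBgn0002973, 2L, 9437469 to 9464184, plus strand) encodes the Notch antagonist and has 3 transcripts from 2 start sites. Its 3 IDR peaks stood in a row within 1777 bp upstream of the internal start, with gaps of 850 and 782 bp between summits. The strongest (9449531 to 9449805, 275 bp wide) peaked at 9449685, 145 bp upstream of that start, which 2 of the 3 transcripts use. Its signal was 1499 in the IDR list (rank 258), 862 in replicate 1 (rank 227) and 586 in replicate 2 (rank 356). It was high in both replicates.

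The 2 peaks further upstream were weaker. At 9448053 the signal was 228 (rank 4346), with 138 in replicate 1 (rank 3995) and 90.6 in replicate 2 (rank 5083). At 9448903 it was 234 (rank 4228), with 172 in replicate 1 (rank 3084) and 31.2 in replicate 2 (rank 16278). That 5.28-fold difference in rank was the widest among the 23 peaks, and the peak rests largely on replicate 1. The first numb start had no IDR peak, and the nearest pooled peak to it, 3 bp away, had a signal of 89.0 (rank 11794).

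The gene pros (FBgn0004595, 3R, 11328480 to 11407627, plus strand) encodes the homeodomain protein Prospero and is the longest of the 10 at 79.1 kb, with 6 transcripts from 4 start sites. Its 3 IDR peaks lay far apart, by 30443 and 24059 bp, and none was within 500 bp of a start. The strongest (11392784 to 11393199, signal 375, rank 2424) fell in the 3' UTR of all 6 transcripts, 64512 bp from the first start, and had a signal of 169 in replicate 1 (rank 3146) and 194 in replicate 2 (rank 2118). The nearest coding start to it was that of the mitochondrial ribosomal protein gene mRpL40, 14926 bp away.

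Both other pros peaks were intronic. At 11368933 the signal was 237 (rank 4174), with 115 in replicate 1 (rank 4917) and 113 in replicate 2 (rank 4021), 3855 bp upstream of the most distal start. At 11338490 it was 216 (rank 4615), with 95.7 in replicate 1 (rank 6018) and 126 in replicate 2 (rank 3540). With 24.7 IDR peaks per Mb of its 121 kb territory, pros had the lowest density of the 6 genes with peaks, below the 48.5 of the genome.

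The gene mira (FBgn0021776, 3R, 19931799 to 19935120, minus strand), whose product Miranda carries Prospero and Brain tumor, is only 3.32 kb long and had no IDR peak. Its pooled peak (19935201 to 19935616) peaked 289 bp upstream of the start with a signal of 148, rank 6796, where the weakest IDR peak had 155. The IDR cut is on reproducibility, so closeness in signal does not show how nearly the peak passed it. In replicate 1 there were 2 overlapping peaks, with summits 98 and 309 bp upstream, signals of 105 and 96.0 and ranks of 5431 and 6000. In replicate 2 there was 1, with a summit 352 bp upstream, a signal of 58.4 and a rank of 7980. The stretch upstream of mira was therefore called in both replicates, but ranked high enough to match the length of the IDR list in replicate 1 alone. The nearest IDR peak lay 25965 bp away, in a non-coding exon. Its nearest coding start was that of RhoGAP92B, 1560 bp upstream of which it lay.

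**Figure D3:**
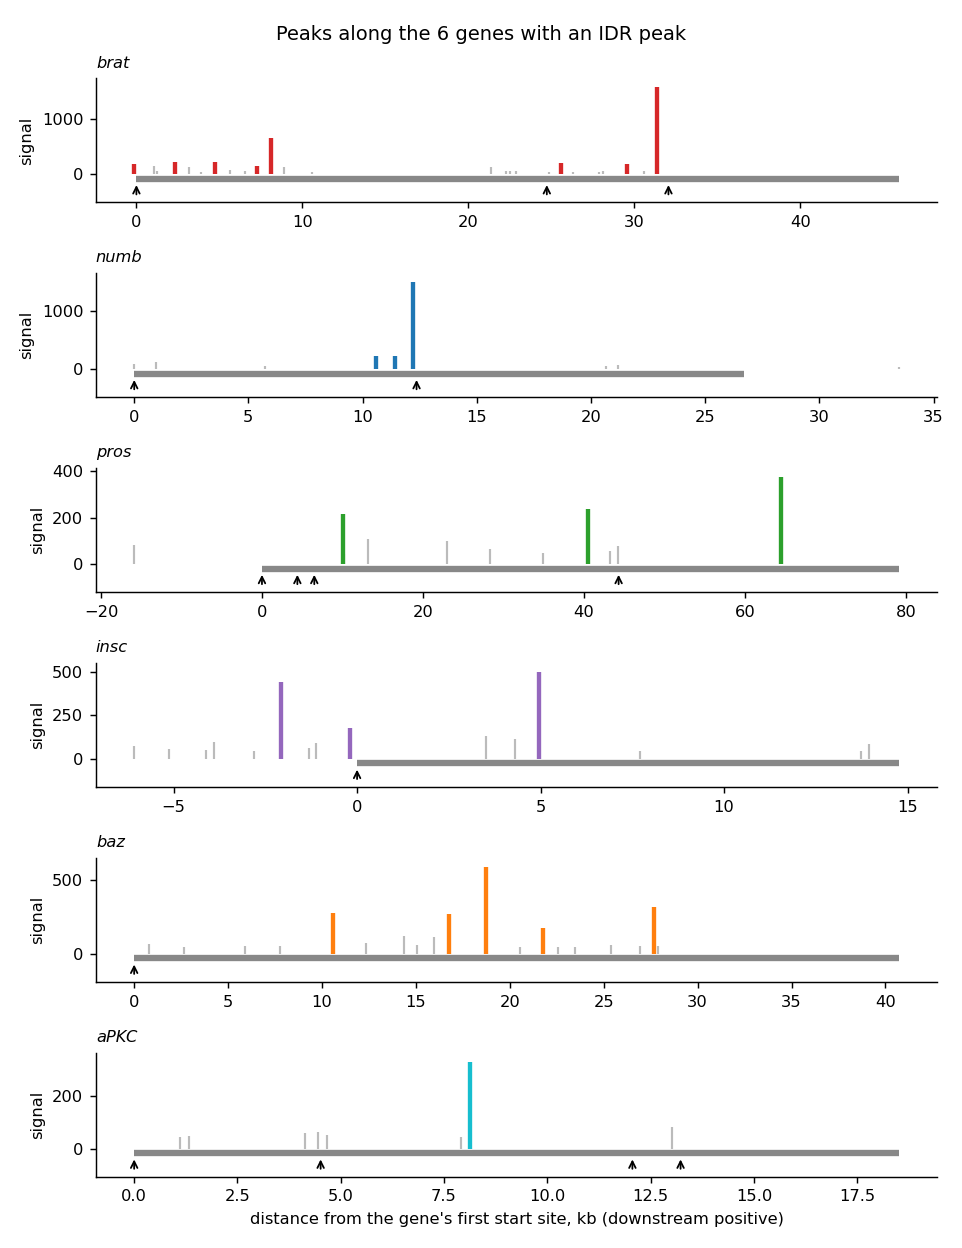
Signal of each peak (vertical axis) by the distance of its summit from the first start site in kb (horizontal axis), for the 6 genes with an IDR peak; coloured bars are IDR peaks, light grey bars weaker pooled peaks, the dark grey line the gene body and arrows the start sites. The highest bars of brat (1587) and numb (1499) stand 688 and 145 bp upstream of internal start sites. The 5 coloured bars of baz lie between 10576 and 27675 bp inside the gene.

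Of the apical Par complex, baz held nearly all the peaks. The gene (FBgn0000163, X, 17160006 to 17200728, plus strand, 40.7 kb) has 4 transcripts from 1 start site, and encodes the scaffold that anchors the complex. Its 5 IDR peaks are a number that 307 coding genes (2.20%) reach, and 17.7% of those with a territory of 30 kb or more. None was near the start: the summits lay 10576 to 27675 bp downstream of it.

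The strongest baz peak (17178582 to 17178787, 206 bp wide) had its summit at 17178721 and a signal of 591 (rank 1295), with 282 in replicate 1 (rank 1579) and 305 in replicate 2 (rank 1088). It lay in the 5' UTR of 2 of the 4 transcripts, as did the peak at 17176773 (signal 273, rank 3576, with 133 and 136 in the replicates). Only 25 of all IDR peaks (0.385%) were assigned to a 5' UTR away from a start, and these are 2 of them. The intronic peak at 17170582 had a signal of 280 (rank 3459), with 143 and 138 in the replicates. The intronic peak at 17187681 had 318 (rank 2965), with 155 and 152.

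The weakest baz peak, at 17181751, had a signal of 178 (rank 5630), with 108 in replicate 1 (rank 5304) and 69.8 in replicate 2 (rank 6656). For this one and the peak at 17187681 the nearest coding start was that of TTLL1A, a tubulin tyrosine ligase-like gene, 20847 and 14917 bp away. Apart from this weakest one, all baz peaks had ranks of 4174 or better in both replicates.

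The gene aPKC (FBgn0261854, 2R, 14944458 to 14962969, minus strand, 18.5 kb) encodes the kinase of the complex and has 12 transcripts from 4 start sites. Its single IDR peak (14954645 to 14955060) was intronic in 5 of the transcripts, 3603 bp downstream of the nearest of its starts, with a signal of 329 (rank 2855). The replicates gave 180 (rank 2914) and 148 (rank 2943), nearly the same rank. A count of 1 is reached by 44.9% of the coding genes of its territory class. Another IDR peak (14963047 to 14963462, signal 199, rank 5001) had its summit 286 bp upstream of aPKC, but 37 bp upstream of the neighbouring gene ckn, to which it was therefore tied.

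The gene par-6 (FBgn0026192, X, 17703352 to 17707096, plus strand, 3.75 kb) encodes the adaptor that joins aPKC to Bazooka and had no peak tied to it. A strong peak stood close by (17702775 to 17703006, signal 774, rank 840), with ranks of 1014 in replicate 1 and 768 in replicate 2. Its summit was 423 bp upstream of par-6 and 95 bp inside CG8188, which runs in the opposite direction, so the nearest-start rule tied it to CG8188.

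Inscuteable and Pins connect the complex to the spindle. The gene insc (FBgn0011674, 2R, 20821262 to 20836028, minus strand, 14.8 kb) has 1 transcript, and its start position is shared with sktl, a phosphatidylinositol phosphate kinase gene that lies inside it. Of its 3 IDR peaks, the strongest (20830854 to 20831269, signal 499, rank 1652) was in the insc intron 4966 bp from the start, with 263 in replicate 1 (rank 1751) and 240 in replicate 2 (rank 1582). That summit also lay in the body of sktl, 1356 bp from an sktl start. The peak 2077 bp upstream (20838013 to 20838197, signal 442, rank 1953) had 189 in replicate 1 (rank 2735) and 258 in replicate 2 (rank 1413), and the peak 187 bp upstream (20836007 to 20836422, signal 179, rank 5609) had 105 (rank 5465) and 65.9 (rank 7053). Both are equally near to sktl, and the first lies in an intron of lncRNA:CR44667. Thus no insc peak could be told apart from sktl by position.

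The gene pins (FBgn0040080, 3R, 27582840 to 27586376, plus strand, 3.54 kb) encodes the GoLoco protein that binds the G protein alpha subunit, and no peak was tied to it. The closest IDR peak (27581234 to 27581649, signal 270, rank 3636) lay 1398 bp upstream, at the start site of wdb, a regulatory subunit gene of protein phosphatase 2A. A weak pooled summit (signal 48.0, rank 26428) lay 349 bp from the pins start but was nearest to wdb. The gene l(2)gl (FBgn0002121, 2L, 9839 to 21376, minus strand, 11.5 kb) lies at the left end of 2L. The first peak on that arm began at 87397 in the IDR list, 23490 in the pooled list, 24651 in replicate 1 and 23430 in replicate 2, all beyond the gene. The nearest IDR summit was 66229 bp away, at net. The nearest pooled summit was 2322 bp from an l(2)gl start, with a signal of 58.1 (rank 20258), and was nearest to Ir21a. Weak peaks were thus called close beside the gene. Whether they could be called within it was not tested.

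Taken over the 6 genes, the 23 summits lay mostly in introns: 16 of 23 (69.6%, exact 95% interval 47.1 to 86.8), where 43.3% of all IDR peaks did. Summits within 500 bp of a start site were 4 of 23 (17.4%, 4.95 to 38.8) against 35.9%, and the share was 26.9% without replicate 2. None of the 23 was intergenic, which allows up to 14.8%, against 18.4% over all. The tying rule takes any summit in a gene body, and the 6 genes run from 14.8 kb (insc) to 79.1 kb (pros). How far the rule sets the share in introns was not tested. More than 5000 bp from any coding start lay 8 of 23 (34.8%), against 27.8%. Intervals cover counting error only, and peaks of 1 gene are not independent.

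By height the peaks lay somewhat to the weaker side of the list, with intervals that include the shares over all IDR peaks. Their median signal was 237 (156 to 1587), with a mean of 404 ± 384 (SD, n = 23 peaks), and the median over all IDR peaks was 295. In the stronger 3248 peaks of the list stood 9 of 23 (39.1%, 19.7 to 61.5), against 50% by construction. In the strongest 1000 stood 2 of 23 (8.70%, 1.07 to 28.0), against 15.4%. The 65 weaker pooled peaks tied to the 10 genes were divided into 35 intronic (53.8%), 15 at start sites (23.1%) and 7 intergenic (10.8%), with 4 in 5' UTRs, 3 in coding exons and 1 in a 3' UTR. Over all 23504 weaker pooled peaks, 45.5% were intronic, 20.4% at start sites and 26.3% intergenic, with 0.796% in 5' UTRs, 4.14% in coding exons and 1.58% in 3' UTRs. The 4 in 5' UTRs were 6.15% of the 65.

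Agreement between replicates was like that of the whole list. The IDR list was itself cut by reproducibility between these 2 replicates. Overlap and rank agreement of its peaks are therefore partly fixed by that cut, for the 23 and for the whole list. Of the 23 peaks, 19 (82.6%, 61.2 to 95) overlapped, by at least 1 bp, the strongest peaks of both replicates, cut to the length of the IDR list, against 82.3% of all IDR peaks. The other 4 (at brat 19159386, numb 9448903, insc 20836215 and baz 17181751) ranked lower in replicate 2. Over the whole replicate lists all 23 overlapped in both, against 99.5%. Across the 23 peaks, which share 2 libraries and a control, Spearman's rho of the replicate ranks was 0.73, and 0.83 over the 22 without the numb peak at 9448903. Across the 6465 IDR peaks found in both lists it was 0.80. Of the 65 weaker pooled peaks, 40 (61.5%) overlapped a peak in both replicates, against 61.9%.

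**Figure D4:**
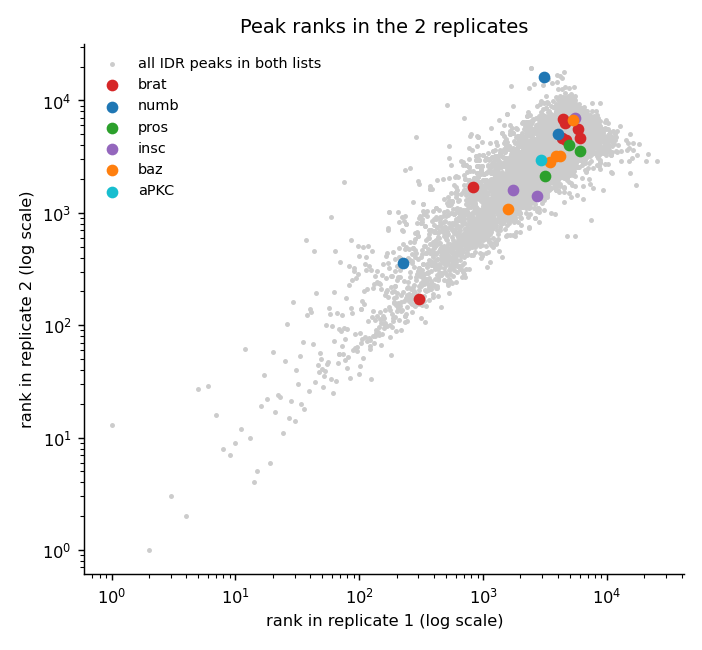
Rank by signal of each IDR peak in replicate 1 (horizontal axis) and in replicate 2 (vertical axis), both on log scales, with low ranks for strong peaks; coloured points are the 23 peaks by gene and grey points all IDR peaks found in both lists. The coloured points lie along the grey cloud, apart from the numb peak at ranks 3084 and 16278.

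The summits were poor in GC. Within 50 bp of the summit the mean GC content was 30.7% ± 9.29 (SD, n = 23 peaks), and in an equal window centred 500 bp to the right it was 41.5% ± 8.41. The summit was lower in 19 of 23 (82.6%), against 83.0% of all IDR peaks, whose means were 30.9% and 43.5%. The richest in AT of the 23 was the intronic pros summit at 11368933, with 19.8% GC, shown here because it carries none of the motifs searched. The pros summit in the 3' UTR went the other way, with 53.5% GC at the summit and 26.7% beside it.

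pros, rank 4174, chr3R:11368883-11368983: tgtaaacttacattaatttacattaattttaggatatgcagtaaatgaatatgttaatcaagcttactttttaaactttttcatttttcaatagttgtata

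**Figure D5:**
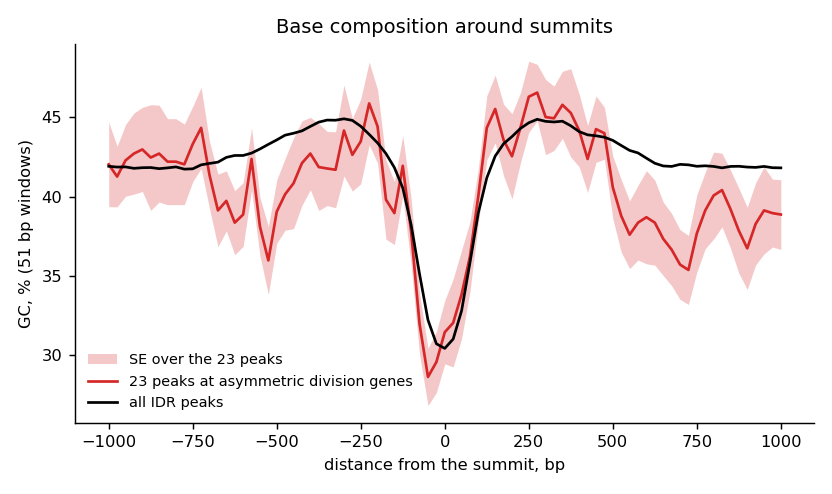
GC content in 51 bp windows (vertical axis) by distance from the summit in bp (horizontal axis), as the mean of the 23 peaks in red with the standard error over peaks shaded, and of all IDR peaks in black. Both lines dip around the summit: the red line is lowest 50 bp to its left, at 28.6%, and the black line at the summit itself, at 30.4%.

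E-boxes stood at few summits. CANNTG was found within 50 bp of 5 of the 23 summits (21.7%, 7.46 to 43.7), against 32.3% of all IDR peaks, and in 10 of the 23 flanking windows (43.5%), against 41.7%. All 5 were in the weaker part of the list: 5 of 14 there, and 0 of 9 in the stronger 3248, which allows up to 33.6%. Over all IDR peaks the shares in the stronger and weaker parts were 31.9% and 32.6%. Neither of the E-boxes CATATG and CAGCTG was present at any of the 23 summits (each allowing up to 14.8%), where 4.0% and 2.28% of all IDR summits held them. A match is a description of the letters and says nothing of binding. Of the 5 windows with an E-box, 4 are shown so that the hexamer can be seen beside the summit, which is base 51, and the fifth, at baz 17176773, lies in a UTR.

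brat, CAAATG, rank 4553, chr2L:19138475-19138575: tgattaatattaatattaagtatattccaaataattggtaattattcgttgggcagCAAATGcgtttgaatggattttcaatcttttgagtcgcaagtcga
brat, CAAGTG, rank 5463, chr2L:19133630-19133730: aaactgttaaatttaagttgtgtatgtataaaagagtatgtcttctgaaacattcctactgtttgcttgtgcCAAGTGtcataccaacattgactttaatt
baz, CAATTG, rank 5630, chrX:17181701-17181801: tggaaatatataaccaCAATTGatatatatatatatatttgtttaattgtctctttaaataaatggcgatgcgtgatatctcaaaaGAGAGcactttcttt
brat, CACTTG, rank 6459, chr2L:19141035-19141135: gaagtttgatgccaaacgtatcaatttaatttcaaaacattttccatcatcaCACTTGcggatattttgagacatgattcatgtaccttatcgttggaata

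Among the other motifs, CAGTG or its complement was within 50 bp of 5 of 23 summits (21.7%), against 16.0%, and in 8 of 23 flanking windows (34.8%), against 17.1%. The 5 were brat at 19163394, numb at 9449685, pros at 11338490 and 11392992, and aPKC at 14954853. GAGAG or its complement was at 3 of 23 summits (13.0%), against 8.10%, and in 1 of 23 flanking windows (4.35%), against 14.4%. The 3 summits were brat at 19141915 and 19165179, and baz at 17181751.

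A wider list of 35 genes that act with the 10 was read by the same rule. An IDR peak was tied to 17 of them (48.6%), 48 peaks in all, against 27.5% of coding genes, and 26 had a pooled peak, against 55.6%. These shares are not matched for gene size, and partner territories ran from 2.33 kb (aurA) to 173 kb (pum). Of coding genes, 17.9% under 10 kb had an IDR peak, 44.9% from 10 to 30 kb and 62.9% at 30 kb or more. How far size accounts for the 48.6% was not tested. By role, peaks were tied to both cortical scaffold genes, to both 14-3-3 genes, to 4 of 8 genes of the apical complex and G proteins, to 2 of 3 Brain tumor partners and to 2 of 4 spindle genes. They were also tied to 2 of 5 basal adaptors and myosins, 1 of 3 Numb partners and 2 of 8 kinases and phosphatases. The groups are small, and differences between them were not tested.

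The highest signal on this list was at cnn, which encodes a centrosome protein, with 1042 (rank 521) at a start site. It was followed by jar, the myosin VI gene, with 943 (rank 605) in an intron, and sqh, the myosin regulatory light chain gene, with 927 (rank 626) at a start site. All 3 were below the best peaks of brat and numb. The most peaks were at pum, with 7 over a territory of 173 kb and a highest signal of 655 (rank 1084), and at scrib, with 6 and 582 (rank 1330). Pumilio is an RNA-binding protein that acts with Brain tumor, and Scribble is a cortical scaffold. The cap-binding protein gene eIF4EHP had 5 peaks (highest signal 623, rank 1188), cno, the Afadin gene, had 5 (560, rank 1403), dlg1, a scaffold gene, had 4 (612, rank 1224), and loco, a regulator of G protein signalling, had 4 (380, rank 2374). In all of these genes with 4 or more peaks the highest was intronic.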

How the data were processed

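Peak lists from ChIP-seq of Oli-GFP embryos in 2 biological replicates were used. The authors deposited 4 lists on dm6: 1 per replicate, 1 from the pooled alignments and the IDR list of 6496 peaks, per the notes deposited with them. The same control served both replicates, so their lists are not wholly independent. Which aligner and caller were used is not given in the sources used here. Deposited signal is the peak height from the authors' caller, with no further scaling stated. It was used within a list only, except at mira, where a pooled signal was set beside the weakest IDR signal. Reads were not analysed here, so depth is unknown. Chromatin had been sonicated to 200 to 800 bp, per the labels. The labels' separate age entry is garbled and was not used.

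Summits were tied to genes of Ensembl release 115 (BDGP6 annotation 54), and all genes sharing a nearest start were counted. A summit within 500 bp of any annotated start was called a start site, and the others were classed by the first that applied of coding exon, UTR (5' before 3'), other exon and intron, the rest being intergenic. Sequence came from release 6 of the genome, the same assembly as dm6. Coordinates count from 1. Summit windows were 101 bp wide, and replicate lists were cut to their strongest 6496 peaks where stated. The scripts (Python 3.11.15, numpy 2.4.6, pandas 2.3.3, scipy 1.17.1, matplotlib 3.10.9) were tested on simulated data. Intervals are Clopper-Pearson at 95%. With 1 group there is no comparison to test.

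The 10 genes, the 35 partner genes and the motifs were chosen with earlier results of these data known. Partners were named when among the 6 with the highest signal or with more than 3 peaks.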

Additional observations from a re-analysis of the deposited data

How the results depend on the processing

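The 6 genes with an IDR peak were 6 to 7 under every alternative run, and the partner genes 13 to 24 (17 reported). The 23 peaks became 15 by nearest start alone, 9 in the strongest 3248 peaks and 41 in the strongest 12992 pooled peaks. Peaks per Mb (70.8) became 66.0 by nearest start alone, 80.7 by gene body alone and 82.7 by starts of any gene type. They became 27.7 in the strongest 3248, 126 in the 12992, and 70.8 to 80.0 with 1 replicate left out. The start-site share (17.4%) became 34.8% with a 1000 bp window, 26.7% by nearest start alone, 10% by gene body alone, 11.1% in the strongest 3248, and 13.0 to 26.9% with 1 replicate left out (26.9% without replicate 2). The GC difference between flank and summit (10.8 percentage points) became 7.15 in the strongest 3248, 7.58 in the 12992, 7.58 with the left flank, 7.96 with a flank 1000 bp away, 9.12 and 8.52 with 25 and 100 bp windows on each side, and 8.57 to 10.3 with 1 replicate left out. The E-box share (21.7%) became 13.3% by nearest start alone, 0% in the strongest 3248, 39.0% in the 12992, 13.0% and 43.5% with 25 and 100 bp, and 21.7 to 30.8% with 1 replicate left out. Overlap with both replicates can only rise with longer lists, and went from 82.6% to 100% over the whole lists. Shorter or longer lists lower or raise the peak counts and the peaks per Mb by construction. Wider windows can only add start sites and E-boxes. The 48.5 peaks per Mb of the genome belongs to the whole IDR list, and no such value was computed beside 27.7 and 126. For the remaining changes the cause was not tested. No paired analysis was possible because there is 1 group.

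Peak lists without reads set no limit of detection, so a gene without a peak is not shown to lack bound protein.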
